A study of Rattus norvegicus with 4 samples.

Results

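The genes described here form the activator arm of the circadian clock together with the receptors and repressors that act on it. The activators are *Arntl* (BMAL1), *Clock*, and *Npas2*. The other members are the repressor *Nfil3*, the REV-ERB receptors *Nr1d1* and *Nr1d2*, the receptor *Rora*, and the cryptochromes *Cry1* and *Cry2*. These 9 genes were chosen by symbol. A gene row was found for 8 of them among the 16992 genes of the tables, and *Rora* was not analysed here.

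The 4 libraries were made from liver of male wild type Wistar rats, and every condition is 1 animal. Rats bought at 6 weeks of age breathed 4.5% sevoflurane or 6% desflurane, either for 6 hours or, as the control of the same agent, only until they lost consciousness. All 4 rats therefore received an agent, and no rat without anesthesia was included. Food and water were withdrawn 2 hours beforehand, and every rat, controls included, was sacrificed in mid-afternoon, in the light phase. The rats at 6 hours thus entered anesthesia in the morning and spent longer without food than the controls, and these differences cannot be told apart from the effect of the agent. With 1 library for each condition, no difference given below has a replicate check and no p-value was calculated. Where 4 values of a gene are listed, their order is sevoflurane control, sevoflurane for 6 hours, desflurane control, desflurane for 6 hours.

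In the clock of mammalian cells, BMAL1 pairs with CLOCK or NPAS2 and binds E-box sequences (CACGTG), from which it drives the REV-ERB, PER, and CRY genes. PER and CRY proteins repress this pair. REV-ERB repressors and ROR activators compete for a second element, the RORE, through which *Arntl*, *Npas2*, *Nfil3*, and *Cry1* are controlled. In liver, transcripts of REV-ERB and of *Arntl* therefore peak at opposite times of day, with REV-ERB high in the light phase of rodents.

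Promoter sequences, 250 bases before to 50 bases after each start site, were taken from RefSeq (GRCr8 build) and were found for 8 of the 9 genes, but not for *Cry1*. They are shown because both elements of this loop can be read in them, with the matched letters in capitals. Both strands were searched for CACGTG, for AGGTCA (the core site of many nuclear receptors), for the RORE consensus, for GTAGGTNA, and for TTATGTAA (a D-box). The motif GTAGGTNA was added after the *Arntl* sequence had been seen. It overlaps the RORE, which in turn contains AGGTCA.
Arntl, chr1:176766235-176766327 (GRCr8, + strand): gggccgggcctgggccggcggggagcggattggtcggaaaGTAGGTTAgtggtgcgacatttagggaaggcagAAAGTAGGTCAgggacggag
Nr1d1, chr10:84229600-84229685 (GRCr8, − strand): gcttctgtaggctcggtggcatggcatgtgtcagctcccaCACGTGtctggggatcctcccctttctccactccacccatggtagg
Nr1d2, chr15:9954807-9954892 (GRCr8, + strand): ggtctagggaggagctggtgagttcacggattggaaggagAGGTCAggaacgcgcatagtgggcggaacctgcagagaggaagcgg
The *Arntl* promoter held a full RORE between 20 and 10 bases before the start site and a shorter match between 53 and 46 bases before it. A RORE was present in 0.356% of all 33469 promoters and GTAGGTNA in 2%. The E-box of *Nr1d1* lay between 191 and 186 bases before the second of its 2 start sites, and 6.42% of all promoters held one. The *Nr1d2* promoter held AGGTCA alone, between 187 and 182 bases before the start site, a sequence present in 16.2% of all promoters. No match to the 5 motifs was found in the windows of *Clock*, *Npas2*, *Nfil3*, *Rora*, and *Cry2*, and TTATGTAA, present in 0.893% of promoters, was found in none of the members. These matches describe letters and not binding.

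Expression is given as TPM values, transcript abundances scaled to length and to the library total, which can be compared between genes of 1 library. Aligned sequence amounted to between 4.47 and 5.40 Gb in each library. All 8 hepatocyte genes examined were abundant, with sums between 134000 and 151000 TPM. The 8 pancreatic acinar genes summed to 39.4, 0.412, 1.08, and 3.08 TPM. None of them was at 0 in the first of these libraries, and 4, 5, and 6 were at 0 in the others, with *Prss1*, *Prss3*, *Ctrb1*, and *Pnlip* listed at 0 in each. For 9 of 10 leukocyte genes with a row, the sums were 984, 506, 674, and 800. For 6 erythroid genes, they were 88.8, 61.2, 64.7, and 36.5. For 6 endothelial genes, all sums were between 178 and 212. The part of these cells in the results below was not tested, and in whole liver, fewer cells of a type and less RNA per cell cannot be told apart.

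The REV-ERB genes were the most abundant members, and *Arntl*, *Npas2*, and *Cry1* were the least abundant. *Nr1d1* and *Nr1d2* were first and second in every library, with TPM values between 116 and 195 and between 41.0 and 50.2. *Cry2* and *Clock* ranked 3 and 4, and *Clock* was above *Cry2* only in the desflurane control (16.9 compared with 16.2). *Nfil3* ranked 5 in each library, with values between 6.31 and 14.0. *Arntl*, *Npas2*, and *Cry1* never exceeded 6.39 TPM. Read coverage of these 3 genes was also low, between 1.63 and 12.0 reads per base, and was the lowest of the members within each library. *Nfil3* came next, with a coverage between 10.7 and 26.2.

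**Figure D1:**
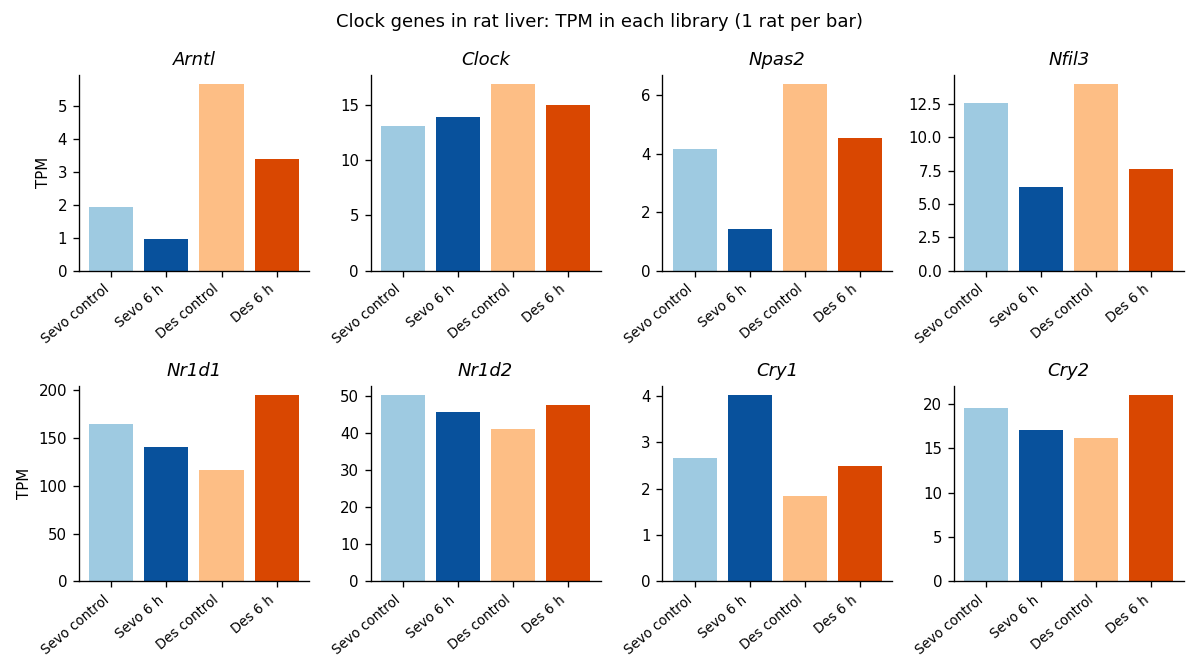
TPM values (y axis, from 0, with a scale of its own in each panel) of the 8 clock genes in the 4 libraries. Each bar is 1 library from 1 rat and has no error bar. The desflurane control is the highest bar for *Arntl*, *Clock*, *Npas2*, and *Nfil3* and the lowest for *Nr1d1*, *Nr1d2*, *Cry1*, and *Cry2*.

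Among the activators, *Arntl* and *Npas2* were lower after 6 hours of either agent than in the control of that agent, whereas *Clock* hardly differed. *Arntl*, located at chr1:178039063-178137471 in the rn6 build, was measured at 1.93 TPM in the sevoflurane control, 0.963 TPM at 6 hours, 5.66 TPM in the desflurane control, and 3.40 TPM at 6 hours. The values of both states overlapped, since the rat given desflurane for 6 hours had more *Arntl* than the sevoflurane control. This order turned with the highest of the transcript rows that StringTie assembled from the reads, which were 4.12, 1.81, 5.39, and 3.54 TPM. Both 6 hour libraries were then below both controls. These rows are not alike between the agents. The sevoflurane values are the highest of 3 and of 4 fragments, and each desflurane value is that of 1 transcript. The log2 change of *Arntl* was -1 with sevoflurane and -0.73 with desflurane. *Npas2* (chr9:45901741-46081880), which can take the place of CLOCK, was 4.16 and 1.41 TPM in the control and at 6 hours of sevoflurane, and 6.39 and 4.56 TPM in those of desflurane. These were log2 changes of -1.56 and -0.49. The 3 other libraries all had at least 4.16 TPM of *Npas2*, and the 6 hour sevoflurane library stood below them. *Clock* (chr14:34455934-34502218) had values of 13.1, 13.9, 16.9, and 15.0 TPM. The highest was 1.29-fold above the lowest, compared with 5.87-fold for *Arntl* and 4.54-fold for *Npas2*. With the assembled rows, this contrast was smaller. *Clock* was then 12.93, 14.26, 20.96, and 17.75 TPM, and *Npas2* was 4.81, 2.33, 7.04, and 5.31 TPM. The *Npas2* value of 2.33 TPM is the highest of 4 fragments.

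The words upregulated and downregulated give the direction between 2 libraries and no cause. The limits for upregulated or downregulated genes were a value above 2 TPM in at least 1 of both libraries and a difference of more than 2-fold. According to this rule, *Npas2* was the 1 member downregulated by sevoflurane, by 2.96-fold, and no member was upregulated. With FPKM in place of TPM and the same limits, *Npas2* no longer passed (log2 change of -1.62) and *Nfil3* did (-1.04). The difference of *Npas2* stayed above 2-fold, and its FPKM level was not above the limit of 2. Among the 9754 genes with more than 2 TPM in either library of this comparison, 3.30% were downregulated and 2.23% were upregulated. *Arntl* was not callable in this comparison because both of its values were below 2 TPM, and *Nfil3* missed the limit with a 1.99-fold difference. Desflurane changed none of the 8 members past the limits, compared with 2.79% of 9855 genes upregulated and 1.48% downregulated. Its largest differences were 1.84-fold for *Nfil3*, 1.68-fold for *Nr1d1*, and 1.66-fold for *Arntl*. For genes above 2 TPM in all 4 libraries, the log2 change had a median of 0.05 for sevoflurane and 0.12 for desflurane. After correction of this shift by median-of-ratios scaling, *Nfil3* passed the limits with both agents.

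*Nfil3* had the smallest difference between the agents in the log2 change from the own control, which was -0.99 with sevoflurane and -0.88 with desflurane. It encodes a repressor that binds D-box sequences and opposes the PAR bZIP activators such as DBP. *Nfil3* (chr17:12261102-12276316) was 12.6 and 14.0 TPM in the controls of sevoflurane and desflurane and 6.31 and 7.63 TPM at 6 hours. Both 6 hour libraries were therefore below both controls, which was true of 13.3% of the 9993 genes with more than 2 TPM in at least 1 library. The gap, 7.63 compared with 12.6, was 1.65-fold, and 1.04% of genes were lower at 6 hours with a gap of more than 1.5-fold. With the assembled rows, *Nfil3* was 10.17, 6.51, 9.74, and 6.55 TPM, and the log2 changes were -0.64 and -0.57. The gap, 6.55 compared with 9.74, was then below 1.5-fold. The assembled row of *Nfil3* began at the annotated start in the sevoflurane control but after it in the other libraries. These values are therefore not alike between the libraries, and the smaller change is not a like-for-like check. With 2 libraries in each state, an exact permutation test cannot give a p-value below 0.333, and none was made. *Nfil3* was the only one of the 8 members whose states did not overlap with TPM, joined by *Npas2* with FPKM and by *Arntl* with the assembled rows, and no member was higher in both 6 hour libraries, compared with 33.3% of genes.

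The REV-ERB genes were slightly lower with sevoflurane and higher with desflurane. *Nr1d1* (chr10:86683875-86690815), the REV-ERB alpha gene, was 165 and 141 TPM in the control and at 6 hours of sevoflurane, and 116 and 195 TPM in those of desflurane. The 6 hour values lay on both sides of the sevoflurane control, so that the states overlapped. The log2 changes were -0.23 and 0.75. *Nr1d2* (chr15:8730871-8757165), which encodes REV-ERB beta, had values of 50.2 and 45.6 with sevoflurane and 41.0 and 47.6 with desflurane. Its highest and lowest libraries differed 1.22-fold, the narrowest range of all members. The row of *Nr1d1* overlaps that of *Thra*, a thyroid hormone receptor gene on the opposite strand, by 1061 base pairs. *Thra* was much lower, between 6.80 and 10.5 TPM, and *Nr1d1* exceeded it between 13.4-fold and 24.3-fold. In the tables, the ratio of FPKM to coverage of *Nr1d1* was between 9.01% and 9.65% above the library median, whereas it differed by less than 0.1% for the 7 other members. Whether the authors' counting used strand is not given in the sources used here, so a part of the reads in the overlap may belong to the other gene.

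The cryptochromes differed from each other. *Cry1* (chr7:24534615-24634098) was higher after 6 hours of either agent, with 2.66 and 4.02 TPM for sevoflurane and 1.85 and 2.49 TPM for desflurane. The 6 hour desflurane value was nevertheless below the sevoflurane control. *Cry2* (chr3:81314151-81344109) was 19.5 and 17.1 TPM with sevoflurane and 16.2 and 21.0 TPM with desflurane, so that its direction was opposite for the agents. *Cry2* exceeded *Cry1* between 4.26-fold, after 6 hours of sevoflurane, and 8.75-fold, in the desflurane control.

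In total, *Arntl*, *Npas2*, and *Nfil3* were lower than the own control with both agents, *Cry1* was higher with both, and *Clock*, *Nr1d1*, *Nr1d2*, and *Cry2* differed in direction. Among the 9993 genes, 18.6% were lower with both agents, 41.3% were higher with both, and 40% differed in direction.

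**Figure D2:**
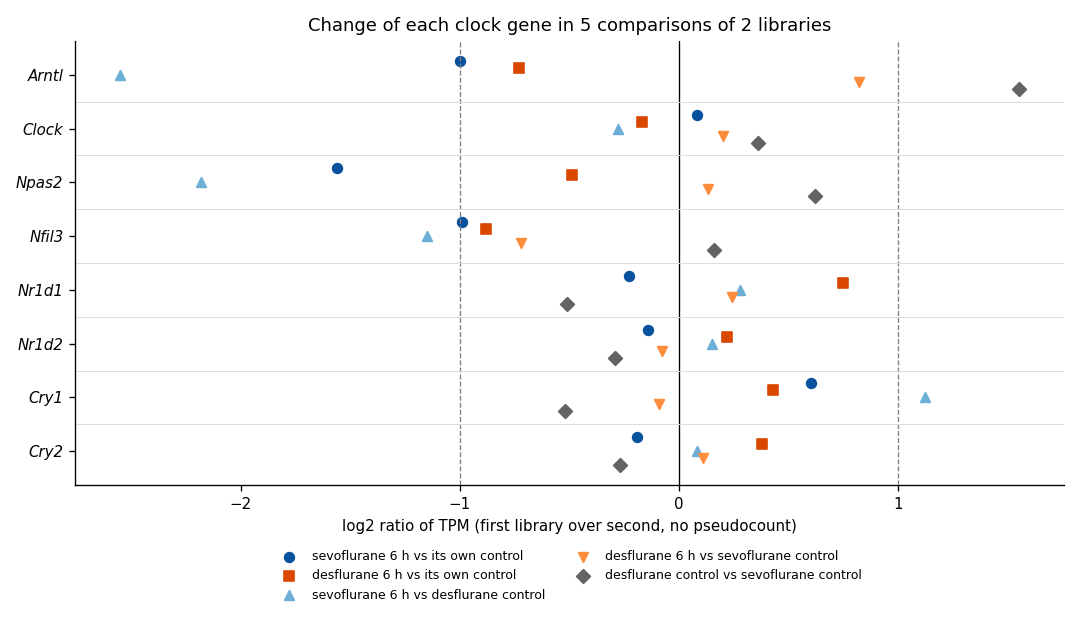
Log2 ratio of TPM (x axis) of each clock gene (rows) in 5 comparisons, each between 2 libraries. Dashed lines mark 2-fold. *Arntl* ranges from -2.55 for 6 hours of sevoflurane over the desflurane control to 1.55 for the desflurane control over the sevoflurane control, whereas all points of *Nr1d2* lie between -0.29 and 0.22.

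Because each agent has 1 control, the comparisons were repeated with the control of the other agent and between the controls. Between the controls, 1 of the 8 members passed the limits. *Arntl* was 2.94-fold higher in the desflurane control than in the sevoflurane control, which passed the rule, as did 1.17% of 9756 genes in this direction. With the highest assembled row of *Arntl*, 5.39 TPM compared with 4.12 TPM, the log2 difference was 0.39 in place of 1.55 and did not pass. This compares 1 transcript in the desflurane control with the highest of 3 fragments in the sevoflurane control. With FPKM (1.38), *Arntl* did not pass either, since its level was not above the limit of 2. No member was downregulated between the controls, and 1.17% of genes were. *Npas2* was 1.54-fold higher, *Clock* 1.29-fold, and *Nfil3* 1.12-fold, none of which passed, and for *Nfil3* the log2 difference of 0.16 was -0.02 with FPKM and -0.06 with the assembled rows. *Nr1d1* was lower in the desflurane control, with a ratio of 0.702, and so, without passing the limits, were *Cry1* (0.697), *Nr1d2* (0.817), and *Cry2* (0.832). For *Arntl*, *Clock*, and *Nr1d2*, the log2 difference between the controls was larger than either difference from the own control, as for 19.0% of all genes.

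All 8 members had their highest or lowest value of the 4 libraries in the desflurane control, compared with 46.9% of genes. *Arntl*, *Clock*, *Npas2*, and *Nfil3* were highest there, as 15.1% of genes were, and *Nr1d1*, *Nr1d2*, *Cry1*, and *Cry2* were lowest, as 31.9% were. This count was chosen after the values had been seen. The count was 7 with FPKM, without *Nfil3*, and also 7 with the assembled rows of the tables in place of the annotated ones. After 6 hours of sevoflurane, *Arntl*, *Npas2*, and *Nfil3* had their lowest value, as 26.9% of genes did, and *Cry1* its highest, as 28.2% did, which made 4 of 8 members compared with 55.1% of genes. The sevoflurane control was highest for *Nr1d2* (18.5% of genes) and lowest for *Clock* (26.2%), 2 members compared with 44.7% of genes. After 6 hours of desflurane, *Nr1d1* and *Cry2* were highest (38.3% of genes) and no member was lowest (15%), 2 members compared with 53.2%.

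The choice of control decided several changes. After 6 hours of sevoflurane, *Arntl* was 5.87-fold, *Npas2* 4.54-fold, and *Nfil3* 2.22-fold lower than in the desflurane control, and *Cry1* was 2.17-fold higher. All of these passed the limits. The libraries differ in agent as well as in duration, and the controls alone differed 2.94-fold for *Arntl* and 1.54-fold for *Npas2*. The call of *Cry1* was lost with a pseudocount of 1 TPM, where its log2 change was 0.81 in place of 1.12, and with FPKM (1.24). With FPKM, *Arntl* (-2.43) also no longer passed. For *Cry1* and *Arntl*, the FPKM level was not above the limit of 2. With the assembled rows, the log2 change of *Arntl* was -1.57 in place of -2.55, and *Nfil3* (-0.58) no longer passed. As described above, the assembled rows of these genes are not alike between the libraries. In this comparison, 2.59% of 9754 genes were downregulated and 2.52% were upregulated. Between 6 hours of desflurane and the sevoflurane control, none of the members passed the limits, with 2.84% of 9865 genes upregulated and 1.58% downregulated. *Arntl* was 1.77-fold higher, *Clock* 1.15-fold, and *Npas2* 1.1-fold in this comparison, the opposite of their direction with the own control. *Nr1d2* and *Cry1*, with ratios of 0.949 and 0.936, also turned. With the assembled rows, *Arntl* did not turn (log2 change of -0.22), and with FPKM *Clock* (-0.06) and *Npas2* (-0.12) did not. *Nfil3* was 1.65-fold lower. *Nr1d1* was 1.18-fold and *Cry2* 1.08-fold higher, and these 3 genes had the direction seen with the own control, which with FPKM was lost for *Nr1d1* (-0.01) and *Cry2* (-0.14). For sevoflurane, the other control turned the direction of *Clock*, *Nr1d1*, *Nr1d2*, and *Cry2*, whose ratios were 0.822, 1.22, 1.11, and 1.05.

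The libraries of the agents were also separated for some members, regardless of the state. Both desflurane libraries exceeded both sevoflurane libraries for *Arntl* (at least 3.40 compared with at most 1.93 TPM), *Npas2* (4.56 compared with 4.16), and *Clock* (15.0 compared with 13.9), and 14.9% of genes showed this order. For *Cry1*, both were below them (at most 2.49 compared with at least 2.66), as for 11% of genes. These counts were also made after the values had been seen. With FPKM, *Arntl*, *Cry1*, and *Nr1d2* were separated, and with the assembled rows *Clock*, *Npas2*, and *Cry1*. The shares of all genes were calculated with TPM only.

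Ratios between members of 1 library do not depend on the scaling of that library. The ratio of *Nr1d1* to *Arntl* was 85.8 and 147 with sevoflurane, control first, and 20.5 and 57.4 with desflurane. It was thus higher at 6 hours with both agents, but the 6 hour desflurane library was below the sevoflurane control. With the assembled rows, the ratios were 40.1, 77.9, 21.5, and 55.1, and this order turned. The *Arntl* rows were fragments in the sevoflurane libraries but not in the desflurane libraries, so these ratios are not alike. The ratio of *Nr1d1* to *Npas2* was 39.7, 100, 18.2, and 42.8, and both 6 hour libraries were above both controls, narrowly for desflurane (42.8 compared with 39.7). Both 6 hour libraries were also above both controls for the ratio of *Nr1d1* to *Nfil3*. It was 13.2 and 8.28 in the sevoflurane and desflurane controls and 22.4 and 25.6 at 6 hours. How many other gene pairs have this order was not calculated. *Clock* exceeded *Arntl* 6.80-fold, 14.4-fold, 2.98-fold, and 4.42-fold. The REV-ERB genes kept a ratio between 2.83 and 4.10.

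**Figure D3:**
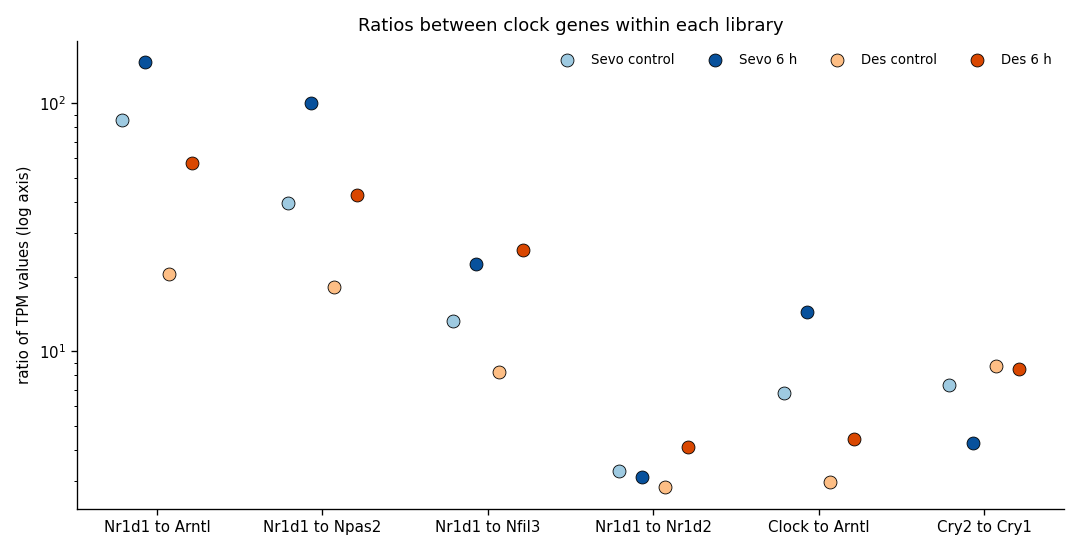
Ratios of TPM values between pairs of clock genes (x axis) within each library, on a log axis. Each point is 1 library. For *Nr1d1* to *Nfil3*, both 6 hour libraries (22.4 and 25.6) lie above both controls (13.2 and 8.28), and for *Nr1d1* to *Arntl* the desflurane control (20.5) is the lowest point.

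Other clock genes were examined as a list of 21 genes, of which 18 had a row. Sevoflurane upregulated 1 of them, *Noct*, and downregulated 1, *Arntl2*. Desflurane upregulated *Per1*, *Per3*, *Ciart*, and *Usp2* and downregulated *Arntl2*. Among all genes, sevoflurane upregulated 2.23% and downregulated 3.3%, and desflurane upregulated 2.79% and downregulated 1.48%. The median log2 change of the 16 genes with more than 2 TPM in any library, after adding 1 TPM, was 0.10 with sevoflurane and 0.44 with desflurane, compared with 0.05 and 0.11 for all genes. For the 8 members, it was -0.20 and 0.03. *Arntl2*, a paralog of *Arntl*, was 4.34, 0.901, 2.78, and 1.24 TPM. Both 6 hour values were below both controls, as for 13.3% of genes. *Arntl2* was downregulated in all 4 comparisons of a 6 hour library with a control.

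The Period genes encode partners of the cryptochromes. *Per1* was 8.92 and 16.8 TPM with sevoflurane and 4.46 and 24.4 TPM with desflurane, and *Per3* was 22.6 and 35.5, and 14.1 and 32.3. Both genes were higher in both 6 hour libraries than in both controls, as were *Ciart*, *Usp2*, and some other genes of the list. This was true of 33.3% of the 9993 genes with more than 2 TPM in any library. *Per2*, at 10.5, 8.95, 11, and 6.12 TPM, was lower in both 6 hour libraries than in both controls, as 13.3% of genes were. It passed the limits in no comparison. *Ciart*, a repressor of the BMAL1 pair, was 4.01 and 7.25 with sevoflurane and 1.97 and 4.03 with desflurane. *Usp2*, a deubiquitinase gene with a circadian rhythm in liver, had values of 15.1 and 17.9 with sevoflurane and 5.50 and 16.7 with desflurane. Their large fold changes with desflurane started from low values in the desflurane control, and relative to the sevoflurane control, 6 hours of desflurane left *Ciart* at 1-fold and *Usp2* at 1.11-fold. *Noct*, a rhythmic gene of nucleotide metabolism, was 3.52, 23.8, 2.24, and 3.39 TPM. It was high in the 6 hour sevoflurane library alone. In the desflurane control, 12 of the 16 genes had their lowest value and 2, *Per2* and *Bhlhe40*, had their highest. Of all genes, 31.9% were lowest and 15.1% were highest there. This count was also made after the values had been seen.

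**Figure D4:**
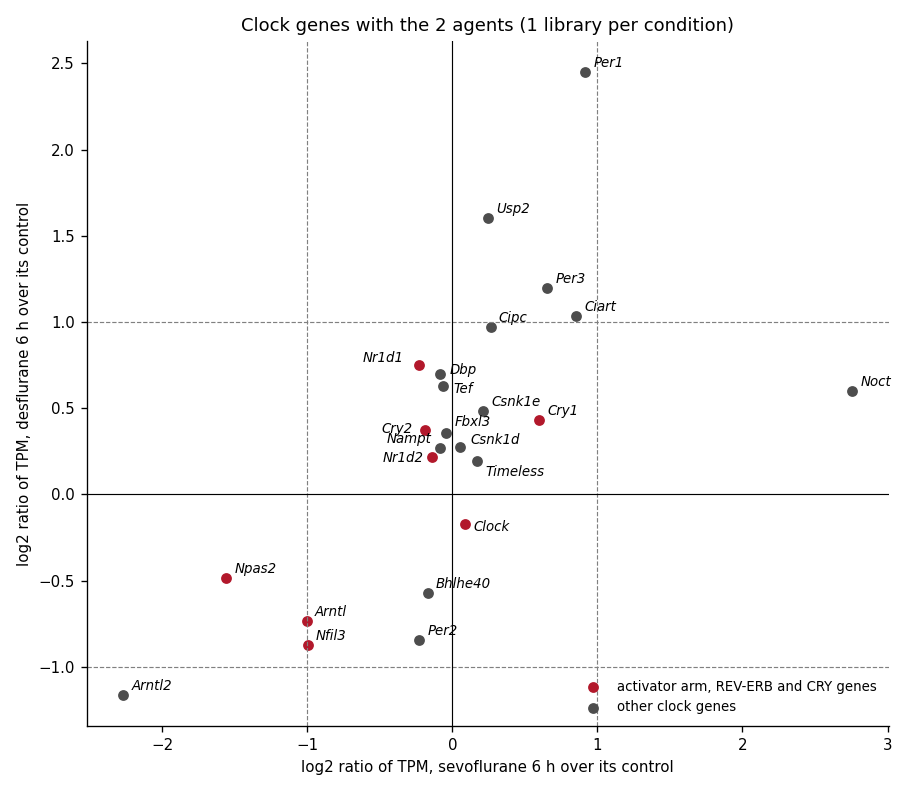
Log2 ratio of TPM of a 6 hour library over its own control, for sevoflurane (x axis) and desflurane (y axis). Each point is 1 gene with more than 2 TPM in any library, red for the 8 genes of the activator arm, REV-ERB and CRY, and grey for 16 other clock genes, and dashed lines mark 2-fold. *Arntl*, *Npas2*, and *Nfil3* lie in the lower left, where values are lower with both agents, together with *Arntl2*, *Per2*, and *Bhlhe40*.

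Of 10 metabolic genes described as targets of REV-ERB or ROR in liver, 8 had more than 2 TPM in any library. Sevoflurane upregulated 1 of them, *Fgf21*, and desflurane upregulated *G6pc* and *Insig2*, and none was downregulated by either agent. The shares of all genes were 2.23% upregulated and 3.3% downregulated with sevoflurane, and 2.79% and 1.48% with desflurane. *G6pc*, which encodes the last enzyme of glucose production, was 206 and 223 TPM with sevoflurane and 114 and 554 TPM with desflurane. *Insig2*, an inhibitor of sterol synthesis, was 190 and 243, and 158 and 372. Both were higher in both 6 hour libraries than in both controls, compared with 33.3% of all genes. *Fgf21*, a hormone of the fasting liver, differed 3.40-fold between the controls, with 12.2 TPM in the sevoflurane and 41.3 TPM in the desflurane control, and was 121 and 24.5 after 6 hours of sevoflurane and desflurane. The median log2 changes of the 8 genes were 0.03 and 0.33 with an added 1 TPM. *Lpl*, which encodes lipoprotein lipase, passed the limits only when 6 hours of desflurane was set against the sevoflurane control (8.30 and 3.47 TPM). Its values of 3.47, 5.64, 5.28, and 8.30 TPM were also higher in both 6 hour libraries than in both controls.

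For each member, the gene with the most similar profile over the 4 libraries was selected outside the lists from 9083 genes with more than 2 TPM in all libraries. Similarity was the root mean square difference of centered log2 values after adding 1 TPM. The nearest gene was *Socs2* for *Arntl* (0.17), *Plaat3* for *Npas2* (0.11), *Fads1* for *Nfil3* (0.029), *Bbs1* for *Nr1d1* (0.026), and *Cgrrf1* for *Cry1* (0.019). It was *Fer* for *Clock* (0.0068), *Taok3* for *Nr1d2* (0.0064), and *Lztfl1* for *Cry2* (0.0083). *Socs2* was 38.8, 20.3, 96.4, and 61.2 TPM. With 4 libraries, many genes had similar profiles where changes were small, with 1236 genes within 0.1 of *Nr1d2*, 965 of *Cry2*, and 502 of *Clock*, compared with 12 of *Nfil3* and none of *Arntl* and *Npas2*.

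The tables also hold transcripts that StringTie assembled from the reads of each library. For *Nr1d2* and *Cry1*, an assembled row repeated the annotated value in every library. Assembled *Clock* transcripts began between 37.8 and 38.3 kb before the annotated start in all 4 libraries, and RefSeq gives 2 start sites of *Clock* that are 37.8 kb apart in GRCr8. *Npas2* was assembled as 1 transcript in 3 libraries but as 4 fragments after 6 hours of sevoflurane, where its coverage was 2.38. *Arntl* was assembled as 3 fragments in the sevoflurane control and 4 after 6 hours of sevoflurane, with a coverage of 3.46 and 1.63, and as 1 transcript in both desflurane libraries, with a coverage of 10.6 and 5.73.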

How the data were processed

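Liver libraries from 4 rats were grouped by the treatment label of each sample. The authors trimmed the paired reads with sickle, mapped them to rn6 with HISAT2, sorted them with SAMtools, and ran StringTie with the rn6 refGene annotation. The deposited coverage is a signal per base that is not scaled to library size, and the deposited FPKM values are normalized to library size. In the deposited TPM signal, the assembled rows add up to 1000000, and the annotated rows, on the same scale, add up to between 779824 and 813454. Here, annotated rows were kept if longer than 200 base pairs, and their TPM values were added up by symbol. Each 6 hour library was compared with its own control and the other control, and the controls with each other. The aligned bases of a library follow from its coverage divided by FPKM (median over genes). No interval for counting error is given, because read counts were not used here.

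The members and lists were chosen with earlier results of these data known. Named genes were the members, list genes past the limits in any of 5 comparisons, the nearest profile of each member, and genes overlapping a member. *Per2* and *Bhlhe40* were named after their values were seen. Alternatives covered the TPM and fold limits, a pseudocount, scaling, FPKM, row handling, coverage, and the control. The limits were also run on simulated libraries in which genes were changed well past them. This checks the calculation only and not how the limits treat differences between animals. Python 3.11.15, numpy 2.4.6, pandas 2.3.3, and matplotlib 3.10.9 were used.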

Additional observations from a re-analysis of the deposited data

Results flagged for a closer look

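Of the 8 members, 4 differed from the own controls in opposite directions with the 2 agents. The difference between the agents, as the log2 change with desflurane minus that with sevoflurane, was 0.98 for *Nr1d1*, 0.56 for *Cry2*, 0.36 for *Nr1d2*, and -0.25 for *Clock*. It was not tested, since each condition has 1 library, and 40% of all genes also differed in direction. For sevoflurane, the direction of these 4 genes turned when the desflurane control was used.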

How the results depend on the processing

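No paired analysis was possible because each condition has 1 library. Shares of all genes were not calculated for the changed TPM and fold limits, the scaling, FPKM, or the assembled rows below. The planned sum of assembled and annotated rows was not run, since it would count the same reads more than once. The highest assembled row was used instead, a choice made after seeing the data. Some of these rows were fragments for *Arntl* and *Npas2*, and some began after the annotated start for *Nfil3*. Values from assembled rows are therefore not alike between the libraries for these genes. With sevoflurane and its own control, the number of downregulated members was 1, and it was 0 at a TPM limit of 5, 2 at a fold limit of 1.5, 2 after median-of-ratios scaling, 2 with assembled rows, and 3 with the mean of both controls or the other control. With FPKM it was also 1, with *Nfil3* in place of *Npas2*. The number of upregulated members was 0, and it was 1 at a fold limit of 1.5 and 1 with the other control. With desflurane and its own control, both numbers were 0, and 2 were downregulated and 1 was upregulated at a fold limit of 1.5, and 1 was downregulated after median-of-ratios scaling. For 6 hours of sevoflurane against the desflurane control, the 1 upregulated member was lost (0) at a TPM limit of 5, with a pseudocount of 1 TPM, and with FPKM. The 3 downregulated members became 2 with FPKM, without *Arntl*, and 2 with assembled rows, without *Nfil3*. For 6 hours of desflurane against the sevoflurane control, a fold limit of 1.5 gave 1 in each direction in place of 0. Between the controls, the 1 member higher with desflurane became 2 at a fold limit of 1.5, 0 with FPKM, and 0 with assembled rows. The number of members whose states did not overlap was 1, and it was 2 with FPKM (*Npas2* and *Nfil3*), 2 with assembled rows (*Arntl* and *Nfil3*), and 0 with a 2-fold gap. Of 432 log2 changes of members under the alternatives, 387 kept their direction and their side of the limits, 17 passed the limits newly, 9 no longer passed, and 19 that passed neither way changed sign. No change past the limits was reversed. Some of these alternatives could not move a member. Each member had 1 row, so that dropping the length filter or taking the highest row per symbol changed no value. The TPM, fold, and coverage limits left the log2 values as they were, so that only the call could move. With FPKM, the log2 differences of *Cry1* (1.24), *Arntl* (1.38), and *Npas2* (-1.62) stayed beyond 2-fold. These genes lost their calls because the level limit of 2 was kept for FPKM, and they were not above it. FPKM shifted the median log2 difference between the controls over all genes from -0.03 to -0.21. A coverage of at most 12 reads per base limits *Arntl*, *Npas2*, and *Cry1*. *Nfil3* had a coverage of 10.7 and 12.9 after 6 hours of sevoflurane and desflurane.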
